A study of Mus musculus with 12 samples.

Results

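The 8 genes described here are regulators of the primitive endoderm and genes of its endocytic machinery: the transcription factors Gata4, Gata6, Sox7 and Sox17, the receptor tyrosine kinase Pdgfra, the adaptor Dab2, and the receptor subunits Cubn and Amn. They were chosen by name, with earlier results of these data known. All probes carrying those names were taken, which gave 17 probes of 41174 and 8 genes of 27716 on the array. RNA of mouse embryonic stem (ES) cells was hybridised to 12 one-colour arrays, 1 for each cell line, culture arm and day. The serum-free arm (B27N2 medium, called the 2i condition in the labels) and the FBS arm (DMEM with 15% fetal bovine serum) were each sampled at days 0, 3 and 10. Every group held 1 array of the Dazl-GFP line and 1 of the Stella-GFP line, lines named for GFP reporters of the germ cell genes Dazl and Stella. All cultures shared leukemia inhibitory factor (LIF) and irradiated feeder fibroblasts. The 2i experiments used PD0325901 (1 µM), a MEK inhibitor, and Kenpaullone (5 µM), a GSK3β inhibitor. Inhibitor exposure of the FBS cells at days 3 and 10, and of the serum-free cells at day 0, is not given in the labels.

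The primitive endoderm is the layer of the blastocyst that faces the cavity and later lines the yolk sacs, as visceral and parietal endoderm. In the mouse embryo it is set apart from the pluripotent epiblast by FGF signalling through MEK, with Gata6, Pdgfra, Sox17, Gata4 and Sox7 coming on in that rough order. Visceral endoderm takes up maternal protein through cubilin, the product of Cubn, which amnionless, the product of Amn, anchors in the membrane, and Dab2 couples such receptors to the clathrin coat. Stray cells of this kind are known from ES cell cultures, and forced expression of Gata4 or Gata6 turns ES cells into them.

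A level is given as a spot's processed signal in percent of its array's 75th percentile, and a change as a log2 difference of limma fits with its SE, from 2 arrays per group. Where a gene had several probes, the brightest stood for it, and levels of different probes were not set against each other. The 75th percentile was 454 to 947 intensity units, 64.0% to 74.4% of spots lay well above background, and no spot of the 8 genes was saturated. The ES cell markers Pou5f1, Nanog, Sox2, Zfp42 and Esrrb were well above background on all 12 arrays. Of the visceral endoderm markers Afp was so on 2 arrays, Ttr on none and Apoa1 on 8, while Hnf4a, Ihh and Cited1 were so on all 12. Hybridisation used 3 slides with 4 arrays each. On slide 1 were the 3 FBS arrays of the Dazl-GFP line and the FBS day 0 array of the Stella-GFP line. Slide 2 held serum-free Dazl-GFP at days 0 and 3 with FBS Stella-GFP at days 3 and 10, and slide 3 the other serum-free arrays. The p-values take in only how far these cultures spread, which may be technical, and precision is limited by there being 12 arrays. In bulk samples such as these, fewer cells of a type and less RNA per cell cannot be told apart.

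Gata6, one of the earliest factors of the primitive endoderm, was high in the serum-free arm at days 0 and 3 and low at day 10. Its levels in the Dazl-GFP and Stella-GFP lines were 87.6% and 24.9% at day 0, 89.8% and 41.5% at day 3, and 7.43% and 7.66% at day 10 of the serum-free arm. In the FBS arm they were 26.4% and 10.9% at day 0, 12.8% and 8.92% at day 3, and 13.8% in both lines at day 10. The serum-free day 10 arrays were the lowest 2 of the 12. Ranked by geometric mean, the groups ran from serum-free day 3 (61.1%) and day 0 (46.7%) through FBS day 0 (17.0%), day 10 (13.8%) and day 3 (10.7%) to serum-free day 10 (7.54%). Neighbouring groups overlapped down to FBS day 10, and the last 3 groups were apart.

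Gata4, the other GATA factor, was dim on the array. Its levels in the Dazl-GFP and Stella-GFP lines were 5.52% and 7.36% at day 0, 6.34% and 4.86% at day 3, and 6.59% and 6.10% at day 10 of the serum-free arm. The FBS values were 3.08% and 2.61% at day 0, 3.11% and 2.84% at day 3, and 2.78% and 6.11% at day 10, with the Stella-GFP array of day 3 not well above background. At days 0 and 3 the serum-free arrays lay above the FBS arrays, and at day 10 the arms overlapped through the FBS array of the Stella-GFP line. All neighbouring groups in the order of levels overlapped.

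Sox17, an HMG-box factor of endoderm, had levels of 39.7% and 18.4% at day 0, 73.3% and 33.2% at day 3, and 7.33% and 8.11% at day 10 in the serum-free Dazl-GFP and Stella-GFP lines. In the FBS arm the same lines gave 7.22% and 4.02% at day 0, 5.32% and 8.57% at day 3, and 15.3% and 18.0% at day 10. All 4 serum-free arrays of days 0 and 3 lay above all 6 FBS arrays, while at day 10 both FBS arrays lay above both serum-free ones. The order of group levels was serum-free day 3 (49.3%), serum-free day 0 (27.0%), FBS day 10 (16.6%), serum-free day 10 (7.71%), FBS day 3 (6.75%) and FBS day 0 (5.39%), with overlap within the first 2 and within the last 3.

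Sox7, a SoxF factor like Sox17, had levels of 49.2% and 24.2% at day 0, 25.7% and 25.1% at day 3, and 5.71% and 4.96% at day 10 of the serum-free arm, for Dazl-GFP and Stella-GFP. The FBS values were 13.4% and 7.09% at day 0, 9.25% and 4.32% at day 3, and 6.82% and 3.79% at day 10. The 4 serum-free arrays of days 0 and 3 stood above the other 8 arrays, and in the order of levels the only gap between neighbouring groups lay there, between serum-free day 3 (25.4%) and FBS day 0 (9.75%).

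Pdgfra encodes the receptor for PDGF-A that primitive endoderm precursors carry, and is also a gene of mesenchymal cells. It had levels of 20.9% and 8.54% at day 0, 24.3% and 11.6% at day 3, and 3.12% and 3.87% at day 10 in serum-free Dazl-GFP and Stella-GFP cultures. In the FBS arm it had 17.5% and 7.39% at day 0, 4.46% and 6.53% at day 3, and 5.55% and 6.09% at day 10. The arms overlapped at day 0, the serum-free arrays were above the FBS arrays at day 3, and they were below them at day 10. The probe had 10 spots per array, of which 8 were well above background on the serum-free Dazl-GFP array of day 10 and 9 on the FBS Stella-GFP array of day 3.

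Dab2, the clathrin adaptor that binds the tails of megalin and amnionless, had levels of 134% and 59.4% at day 0, 52.6% and 16.2% at day 3, and 6.73% and 7.23% at day 10 of the serum-free arm, again Dazl-GFP and then Stella-GFP. The FBS values were 61.0% and 36.6% at day 0, 17.8% and 16.7% at day 3, and 9.45% and 10.2% at day 10. The level was lower at each later day in both lines and both arms. The arms overlapped at days 0 and 3, the serum-free Stella-GFP array lying just under both FBS arrays at day 3.

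Cubn, which encodes the extracellular part of the cubilin receptor, spanned the widest range of the 8 genes. Its levels were 500.0% and 381% at day 0, 192% and 35.2% at day 3, and 17.8% and 14.5% at day 10 of the serum-free arm in the Dazl-GFP and Stella-GFP lines. In the FBS arm they were 126% and 13.2% at day 0, 5.53% and 5.93% at day 3, and 3.18% and 5.84% at day 10. The serum-free arrays lay above the FBS arrays at every day. The lines differed most at FBS day 0 and serum-free day 3, where the SD of the pair was 2.30 and 1.73 on the log2 scale. The probe's target sequence was not matched in the RefSeq table, so its gene name is that of the array design.

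Amn, whose product carries cubilin to the cell surface, had levels of 63.4% and 59.9% at day 0, 28.9% and 36.8% at day 3, and 5.63% and 21.0% at day 10 of the serum-free arm for Dazl-GFP and Stella-GFP. The FBS levels were 50.9% and 52.4% at day 0, 24.7% and 23.3% at day 3, and 15.6% and 19.2% at day 10. The level was lower at each later day in both lines and both arms, and the arms overlapped at day 10. The serum-free Dazl-GFP array of day 10 stood alone at the low end, so that the pair's SD there was 1.34 on the log2 scale.

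**Figure D1:**
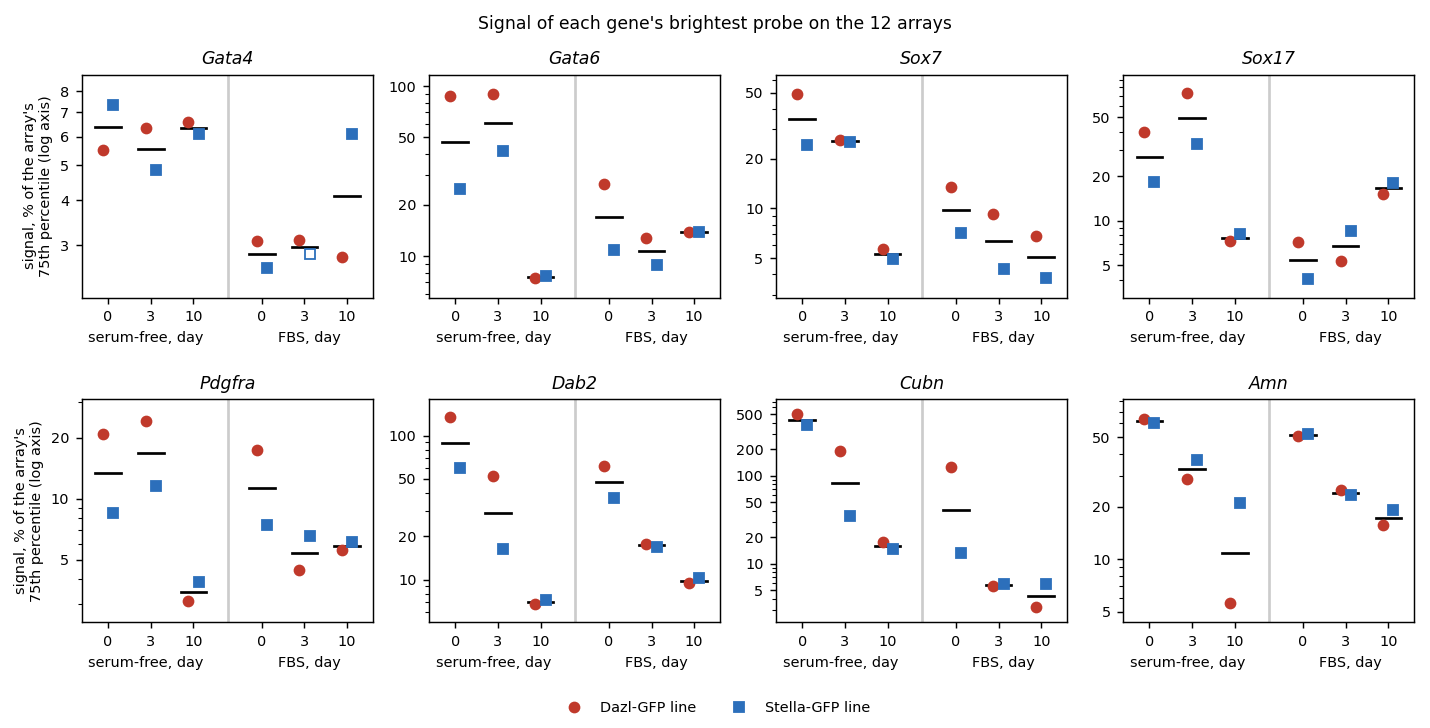
Level of each gene's brightest probe on each of the 12 arrays, in percent of the array's 75th percentile on a log axis, by day in the serum-free and FBS arms. Circles are the Dazl-GFP line and squares the Stella-GFP line, an open symbol was not well above background, and bars are geometric means of 2 arrays. Gata6 at serum-free day 10 (7.43% and 7.66%) lies below its other groups, and Cubn at serum-free day 0 (500.0% and 381%) above its other groups.

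Promoter sequence from the RefSeq table (GRCm38.p6), 250 bases before to 50 after the start, was used for 4 of the 8 genes, in 5 windows. One window is shown for each of Pdgfra, Dab2, Cubn and Amn, and capitals mark GATA letters.
Pdgfra promoter, chr5:75152001-75152300, + strand: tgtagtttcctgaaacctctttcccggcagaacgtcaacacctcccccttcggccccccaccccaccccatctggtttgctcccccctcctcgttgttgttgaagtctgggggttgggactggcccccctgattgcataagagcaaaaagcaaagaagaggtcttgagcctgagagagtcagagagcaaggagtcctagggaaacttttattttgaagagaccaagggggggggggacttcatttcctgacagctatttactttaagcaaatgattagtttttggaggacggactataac
Dab2 promoter, chr15:6299539-6299838, + strand: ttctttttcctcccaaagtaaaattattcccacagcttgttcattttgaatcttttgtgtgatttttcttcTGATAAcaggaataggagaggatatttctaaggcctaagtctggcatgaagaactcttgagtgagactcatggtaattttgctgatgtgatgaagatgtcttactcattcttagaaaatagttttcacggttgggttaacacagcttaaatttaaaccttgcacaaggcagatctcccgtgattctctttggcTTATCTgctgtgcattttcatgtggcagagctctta
Cubn promoter, chr2:13491827-13492126, - strand: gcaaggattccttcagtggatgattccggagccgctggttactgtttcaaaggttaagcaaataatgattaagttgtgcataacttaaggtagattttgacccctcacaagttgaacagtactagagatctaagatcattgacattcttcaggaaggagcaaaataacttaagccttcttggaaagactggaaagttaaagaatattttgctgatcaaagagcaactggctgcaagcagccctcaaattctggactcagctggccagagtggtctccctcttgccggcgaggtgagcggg
Amn promoter, chr12:111270846-111271145, + strand: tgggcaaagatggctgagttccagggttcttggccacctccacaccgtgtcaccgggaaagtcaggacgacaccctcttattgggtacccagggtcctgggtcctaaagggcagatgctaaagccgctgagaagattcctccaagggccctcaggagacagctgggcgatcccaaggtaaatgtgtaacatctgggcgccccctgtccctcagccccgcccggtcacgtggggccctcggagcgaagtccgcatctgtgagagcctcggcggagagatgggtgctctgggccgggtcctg
The windows were searched on both strands for the GATA letters AGATAA and TGATAA and the SOX letters ACAATG and ACAAAG, which do not overlap each other. The Dab2 window held TGATAA on the + strand with its first base at -179 and AGATAA on the - strand at 14, counted from the start. No match lay in the other windows, including a second Dab2 window at chr15:6386498-6386797. Of all 32851 windows in the table, 18.61% held the GATA letters and 28.6% the SOX letters. A match is a description of letters, not of binding, and its absence says only that these letters are not in the window.

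At day 0 the question was whether cells of the 2 arms already differed. The difference, serum-free minus FBS, was 1.82 for Sox7 (SE 0.29, adjusted p = 0.0359), 3.54-fold higher, with 1.88 in the Dazl-GFP line and 1.77 in the Stella-GFP line. It was 1 of the 8 genes past the threshold of 0.05, where 1.89% of the 21352 tested genes passed and 1.03% were higher. All 8 differences were above 0, with a median of 1.31 against -0.02 over all tested genes. Cubn gave 3.42 (SE 0.93, adjusted p = 0.0981), as 1.99 in the Dazl-GFP line and 4.85 in the Stella-GFP line. Sox17 gave 2.32 (SE 0.47, adjusted p = 0.0582), Gata6 1.46 (SE 0.45, adjusted p = 0.125) and Gata4 1.17 (SE 0.36, adjusted p = 0.121). Dab2 (0.91), Amn (0.25) and Pdgfra (0.23) also did not pass. Leaving out any 1 of the 12 arrays ended the call of Sox7, with values of 1.62 to 2.02 and adjusted p of 0.0514 to 0.227. Its value was 2.22 (adjusted p = 0.326) with the slide as a block, and the arms shared no slide at that day. Of 19 tested fibroblast markers 2 were lower at day 0 (median -0.32), with summed levels of 3804% and 4601% on the serum-free Dazl-GFP and Stella-GFP arrays against 5362% and 5047% on the FBS arrays, and their part in the result was not tested.

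At day 3 the number of genes past the threshold was higher than at day 0, though the difference between the days passed for none of the 8. Sox17, Gata6, Sox7 and Cubn were higher in serum-free cells, 4 of the 8 genes, where 22.6% of all tested genes passed and 8.98% were higher. Sox17 differed by 2.87 (SE 0.47, adjusted p = 0.00823), or 7.31-fold, with 3.79 in the Dazl-GFP line and 1.95 in the Stella-GFP line. Gata6 differed by 2.52 (SE 0.45, adjusted p = 0.0105), or 5.72-fold, with 2.81 and 2.22 in those lines. Sox7 differed by 2.01 (SE 0.29, adjusted p = 0.00577), or 4.03-fold, with 1.48 and 2.54. Cubn differed by 3.84 (SE 0.93, adjusted p = 0.026), or 14.4-fold, with 5.12 and 2.57. In these 4 genes both serum-free arrays lay above both FBS arrays, as they also did in Gata4, Pdgfra and Amn, which did not pass. The share of all tested genes separated in this way was not computed.

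The other 4 genes did not pass at day 3. Pdgfra gave 1.64 (SE 0.51, adjusted p = 0.055), with 2.45 in the Dazl-GFP line and 0.83 in the Stella-GFP line. Gata4 gave 0.90 (SE 0.36, adjusted p = 0.104) and Amn 0.44 (SE 0.46, adjusted p = 0.493), and Gata4 passed without an FBS day 10 array of either line (0.90, adjusted p = 0.0387). Its dimmer probe, described with the other probes, passed at day 3 in the fit of all probes. Dab2 gave 0.76 (SE 0.45, adjusted p = 0.244), made of 1.56 in the Dazl-GFP line and -0.04 in the Stella-GFP line. The median over the 8 genes was 1.82 against -0.21 over all tested genes.

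Slide 2 held both arms at day 3, with the serum-free array from the Dazl-GFP line and the FBS array from the Stella-GFP line. Within it the differences were 5.02 for Cubn, 3.33 for Gata6, 3.1 for Sox17, 2.58 for Sox7, 1.90 for Pdgfra, 1.65 for Dab2, 1.16 for Gata4 and 0.31 for Amn. With the slide as a block Sox17 (2.85, adjusted p = 0.0365) and Gata6 (2.76, adjusted p = 0.0498) passed, and Sox7 (2.20, adjusted p = 0.0518) and Cubn (2.54, adjusted p = 0.222) did not. Sox7 passed with any 1 array left out (1.62 to 2.40). The Sox17 call ended without the Dazl-GFP array of either arm (2.39 without the serum-free one, 2.25 without the FBS one). That of Gata6 ended without either of these (2.32 and 2.36) or the serum-free Stella-GFP array (2.72). Cubn did not pass without any 1 of the 4 day 3 arrays (2.92 to 4.77).

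Feeder markers moved with the same comparison. Of 19 tested fibroblast markers, 15 were lower in the serum-free arm at day 3 (median -2.29), among them S100a4 (-4.86, adjusted p = 0.000908) and Thy1 (-4.25, adjusted p = 0.00152). Their summed level was 1833% and 2455% on the serum-free Dazl-GFP and Stella-GFP arrays, against 6814% and 11921% on the FBS arrays, and Fap alone of the 20 listed was above background on no array. Of 8 tested macrophage genes 5 were lower (median -3.15), with summed levels of 125% and 92.2% in the serum-free arm against 524% and 908% in the FBS arm. The part of these cells in the differences of the 8 genes was not tested.

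**Figure D2:**
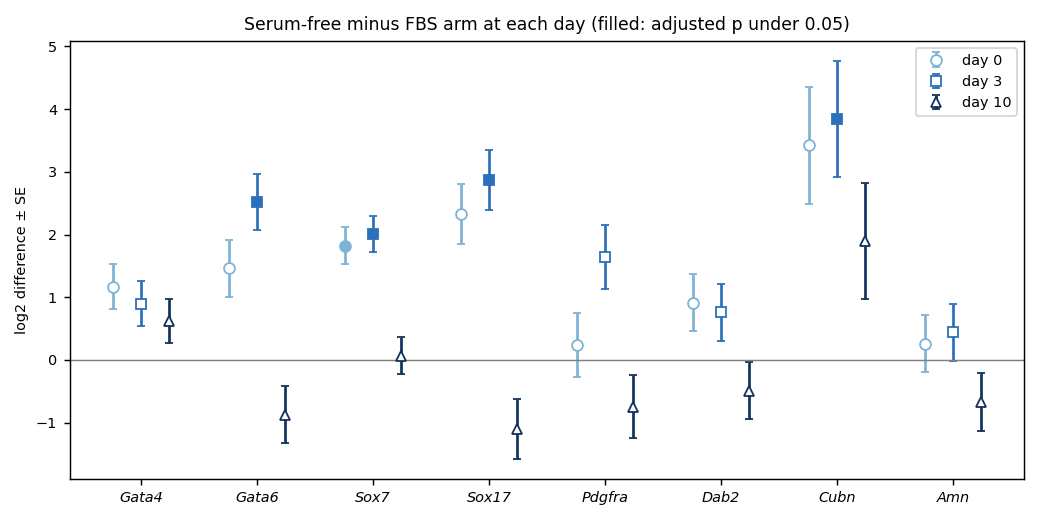
Log2 difference, serum-free minus FBS, with its SE for each of the 8 genes at days 0, 3 and 10, filled where the adjusted p was under 0.05. Sox7 is filled at day 0, Gata6, Sox7, Sox17 and Cubn at day 3 (2.01 to 3.84), and none at day 10.

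By day 10 none of the 8 genes passed between the arms in limma, where 5.62% of all tested genes did. None had an unadjusted p under 0.05, against 5257 of the 21352 tested genes. Cubn gave 1.90 (SE 0.93, adjusted p = 0.251), Gata4 0.62 (SE 0.36) and Sox7 0.07 (SE 0.29). Sox17 gave -1.10 (SE 0.47, adjusted p = 0.204), with -1.06 in the Dazl-GFP line and -1.15 in the Stella-GFP line, and Gata6 -0.87 (SE 0.45, adjusted p = 0.274). Pdgfra (-0.74), Amn (-0.67) and Dab2 (-0.49) were also below 0. The median was -0.58 against 0.11 over all tested genes. The arms shared no slide at this day, with both serum-free arrays on slide 3. Without the serum-free Stella-GFP array of day 10 Amn alone passed, at -1.57 (adjusted p = 0.0369).

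Over all 3 days together, in a model of arm, day and line, Cubn was higher in serum-free cells, by 3.06 (SE 0.54, adjusted p = 0.0103), Sox7 by 1.30 (SE 0.32, adjusted p = 0.0363) and Gata4 by 0.90 (SE 0.20, adjusted p = 0.0271). These were 3 of the 8 genes, where 9.26% of all tested genes passed and 4.08% were higher. Sox17 gave 1.36 (SE 0.61, adjusted p = 0.202), Gata6 1.03 (SE 0.51, adjusted p = 0.246) and Amn 0.01 (SE 0.29). The call of Cubn held with any 1 array left out (2.67 to 3.47), while that of Sox7 ended in 9 of the 12 such fits (1.11 to 1.55 over all 12), all but those without either FBS day 10 array or the serum-free Dazl-GFP array of day 10. The Gata4 call ended in 7 fits (0.79 to 1.08 over all 12), namely without either serum-free day 0 array, either FBS day 3 array, the serum-free Dazl-GFP array of day 3, the FBS Stella-GFP array of day 0 or the FBS Dazl-GFP array of day 10. Gata4 was dim, its second probe did not pass over all days in the fit of all probes (adjusted p = 0.116), and its value reversed with normexp background correction. None of the 3 passed with the slide as a block. In the same model 6 of 19 tested fibroblast markers were lower (median -0.91) and 1 of 8 macrophage genes (median -1.05), and their part in the result was not tested.

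The next comparisons ask how the genes changed with time in each arm. Between day 0 and day 10 of the serum-free arm Cubn, Dab2, Sox7, Gata6 and Amn fell, 5 of the 8 genes, where 5.25% of all tested genes passed and 3.07% were lower. The change was -4.76 (SE 0.93, adjusted p = 0.0329) for Cubn, 27.1-fold lower at day 10, with -4.81 in the Dazl-GFP line and -4.71 in the Stella-GFP line. Dab2 changed by -3.68 (SE 0.45, adjusted p = 0.00971), 12.8-fold lower, with -4.31 and -3.04 in those lines. Sox7 changed by -2.70 (SE 0.29, adjusted p = 0.00799) and Gata6 by -2.63 (SE 0.45, adjusted p = 0.0217), 6.49-fold and 6.19-fold lower. Amn changed by -2.50 (SE 0.46, adjusted p = 0.0264), with -3.49 in the Dazl-GFP line and -1.51 in the Stella-GFP line. In each of the 5 genes both day 10 arrays lay below both day 0 arrays, as they also did in Sox17 and Pdgfra, which did not pass. How many of all tested genes were separated in this way was not computed. Of 19 tested fibroblast markers 3 were lower (median -0.29), with summed levels of 2397% and 4463% at day 10 against 3804% and 4601% at day 0, and their part in the falls was not tested.

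Pdgfra (-1.94, SE 0.51, adjusted p = 0.0733) and Sox17 (-1.81, SE 0.47, adjusted p = 0.0738) did not pass from day 0 to day 10, and Gata4 was at -0.01 (SE 0.36). The median over the 8 genes was -2.57 against 0.12 over all tested genes. All 3 serum-free arrays of the Stella-GFP line shared slide 3, so its values are within that slide: -4.71 for Cubn, -3.04 for Dab2, -2.29 for Sox7, -1.70 for Gata6 and -1.51 for Amn. With the slide as a block none of the 5 passed, at -4.94 for Cubn (adjusted p = 0.0999), -3.12 for Dab2 (adjusted p = 0.0515), -2.71 for Sox7 (adjusted p = 0.0616), -2.21 for Gata6 (adjusted p = 0.103) and -2.08 for Amn (adjusted p = 0.142). Without the Dazl-GFP array of serum-free day 0 or of day 10, none of the 5 passed either. These fits gave -5.07 and -4.40 for Cubn, -3.32 and -3.26 for Dab2, -2.50 and -2.41 for Sox7, -2.01 and -2.14 for Gata6, and -2.21 and -1.61 for Amn. Leaving out the Stella-GFP array of day 0 ended the calls of Cubn (-4.46) and Amn (-2.79), and leaving out that of day 10 those of Cubn (-5.13) and Gata6 (-3.12).

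Gata6, Sox17 and Sox7 passed between days 3 and 10, in a comparison that shares its day 10 arrays with the one before. From day 3 to day 10 of the serum-free arm Gata6 changed by -3.02 (SE 0.45, adjusted p = 0.0291), 8.10-fold lower, Sox17 by -2.68 (SE 0.47, adjusted p = 0.041), 6.40-fold lower, and Sox7 by -2.26 (SE 0.29, adjusted p = 0.0254), 4.78-fold lower. They were 3 of the 8 genes, where 2.23% of all tested genes passed and 1.04% were lower. Per line the changes were -3.60 and -2.44 for Gata6, -3.32 and -2.03 for Sox17, and -2.17 and -2.34 for Sox7, in the Dazl-GFP and Stella-GFP lines, the second of each within slide 3. Pdgfra gave -2.28 (SE 0.51, adjusted p = 0.0647), Dab2 -2.07 (SE 0.45, adjusted p = 0.0619), Cubn -2.35 (SE 0.93, adjusted p = 0.169) and Amn -1.59 (SE 0.46, adjusted p = 0.106). Gata4 alone was above 0, at 0.19 (SE 0.36). The median was -2.27 against 0.19 over all tested genes. With the slide as a block none passed (Gata6 -2.59, Sox17 -2.29, Sox7 -2.27, adjusted p = 0.125 to 0.136).

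The 3 calls from day 3 to day 10 also depended on single arrays. Leaving out 1 array ended the call of Gata6 in 6 of 12 fits (-3.51 to -2.52), those without a day 3 array of either arm or a serum-free day 10 array. It ended that of Sox7 in 5 (-2.65 to -1.86), those without a serum-free array other than the Stella-GFP one of day 10, and of Sox17 in 10 (-3.16 to -2.19), all but those without an FBS day 0 array. Without the serum-free Stella-GFP array of day 10 Amn passed, at -2.48 (adjusted p = 0.043). Fibroblast markers went the other way, 3 of 19 higher (median 1.14), with summed levels of 2397% and 4463% at day 10 against 1833% and 2455% at day 3 in the Dazl-GFP and Stella-GFP lines. Their part in the change was not tested.

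From day 0 to day 3 of the serum-free arm none of the 8 genes passed in limma, where 13.9% of all tested genes did. Dab2 and Cubn, 2 genes, had an unadjusted p under 0.05, against 6590 of the 21352 tested genes. Dab2 gave -1.61 (SE 0.45, adjusted p = 0.0548), Cubn -2.41 (SE 0.93, adjusted p = 0.126) and Amn -0.92 (SE 0.46, adjusted p = 0.221), each with both day 3 arrays below both day 0 arrays. How many of all tested genes had their arrays apart between these days was not computed. Sox17 gave 0.87 (SE 0.47), Gata6 0.39 (SE 0.45) and Pdgfra 0.33 (SE 0.51), with overlapping days. Without the serum-free day 10 array of either line Amn passed (adjusted p = 0.029 at the lowest), its own value unchanged at -0.92, and with the slide as a block Dab2 passed at -1.61 (adjusted p = 0.0228). Of 19 tested fibroblast markers 10 were lower at day 3 than at day 0 (median -1.39), with summed levels of 1833% and 2455% at day 3 against 3804% and 4601% at day 0 in the Dazl-GFP and Stella-GFP lines. Of 8 macrophage genes 2 were lower and 1 higher (median -1.34), and the part of either cell type was not tested.

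In the FBS arm Dab2 alone passed between day 0 and day 10. It fell by 2.27 on the log2 scale (SE 0.45, adjusted p = 0.0185), 4.82-fold lower at day 10, where 12.9% of all tested genes passed and 5.34% were lower. The change was -2.69 in the Dazl-GFP line, within slide 1, and -1.85 in the Stella-GFP line. Cubn gave -3.24 (SE 0.93, adjusted p = 0.0616), Amn -1.58 (SE 0.46, adjusted p = 0.0634) and Sox7 -0.94 (SE 0.29, adjusted p = 0.0792). Sox17 was at 1.62 (SE 0.47, adjusted p = 0.0662), both day 10 arrays lying above both day 0 arrays. Such separation was not counted over all tested genes. The Dab2 call ended without either FBS day 0 array (-2.36 without Stella-GFP, -2.17 without Dazl-GFP) or the Dazl-GFP day 10 array (-1.86). Without the Stella-GFP array of FBS day 0 Cubn passed, at -4.65 (adjusted p = 0.0343), and without the serum-free day 10 array of either line Amn passed, at -1.58. Of 11 tested pluripotency genes 8 were higher at day 10 than at day 0 of the FBS arm (median 1.29), while of 19 fibroblast markers 1 was higher and 2 were lower (median -0.07), and their part in the change was not tested.

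From day 0 to day 3 of the FBS arm none of the 8 genes passed in limma (12% of all tested genes did). Dab2, Cubn and Amn, 3 genes, had an unadjusted p under 0.05, against 6384 of the 21352 tested genes. Cubn gave -2.83 (SE 0.93, adjusted p = 0.09), Dab2 -1.45 (SE 0.45, adjusted p = 0.0782) and Amn -1.10 (SE 0.46, adjusted p = 0.154). Cubn passed without the Stella-GFP array of day 0 (-4.24), and Amn without a serum-free day 10 array of either line (-1.10). From day 3 to day 10 none passed either (1.46% of all tested genes did). Only Sox17, at 1.29 (SE 0.47, adjusted p = 0.157), had an unadjusted p under 0.05, against 5268 of all tested genes.

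Whether the arms changed differently was tested as the serum-free change minus the FBS change. For day 3 to day 10 this difference was -3.97 (SE 0.67, adjusted p = 0.0319) for Sox17, -3.39 (SE 0.64, adjusted p = 0.0351) for Gata6 and -1.94 (SE 0.42, adjusted p = 0.039) for Sox7, 3 of the 8 genes, where 9.5% of all tested genes passed and 3.62% were lower. Sox17 changed by -2.68 in the serum-free arm and was at 1.29 in the FBS arm, and Gata6 by -3.02 against 0.37. Sox7 changed by -2.26 against -0.31. The rest gave -2.38 for Pdgfra (SE 0.72, adjusted p = 0.0684), -1.94 for Cubn (SE 1.31), -1.25 for Dab2 (SE 0.64), -1.11 for Amn (SE 0.64) and -0.28 for Gata4 (SE 0.50). The median was -1.94 against 0.27 over all tested genes. Of 19 tested fibroblast markers 7 were higher by this measure (median 1.86), and of 8 macrophage genes 4 were higher (median 3.08), and their part in these differences was not tested.

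Each of the 3 differences of change lost its call in 9 of the 12 fits that left out 1 array, all but those without either FBS day 0 array or the serum-free Stella-GFP array of day 10. Without the last of these Amn also passed, at -2.01 (adjusted p = 0.0348). The values stayed within -4.59 to -3.36 for Sox17, -3.88 to -2.89 for Gata6 and -2.33 to -1.55 for Sox7. With the slide as a block they were -3.58 and -2.96 (adjusted p = 0.075 for both) and -1.96 (adjusted p = 0.0784). For the change from day 0 to day 10 none of the 8 genes passed (0.0656% of all tested genes did). Sox17 (-3.43), Gata6 (-2.33) and Sox7 (-1.76), 3 genes, had an unadjusted p under 0.05, against 4162 of the 21352 tested genes. For day 0 to day 3 none passed (1.63% of all tested genes did) and none had an unadjusted p under 0.05, against 5256 of all tested genes.

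**Figure D3:**
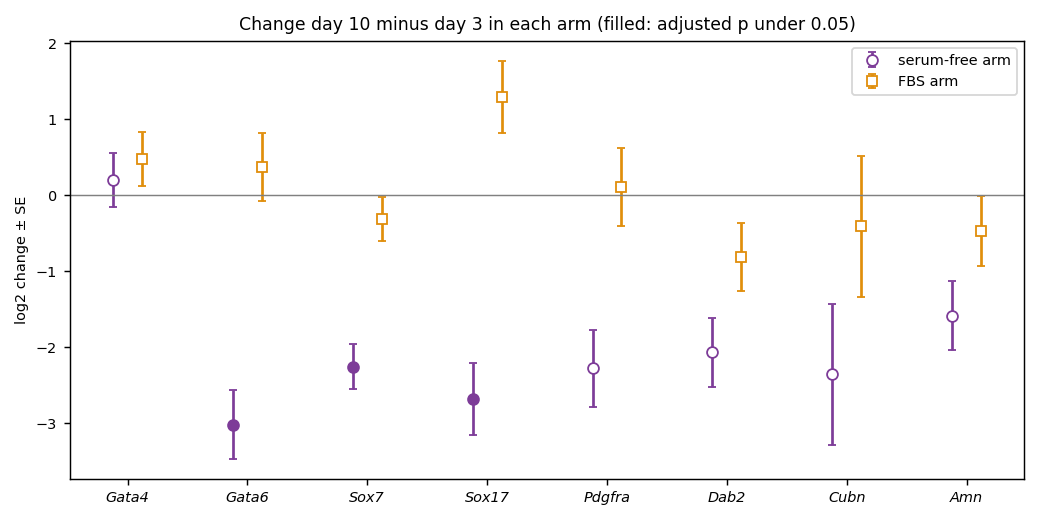
Log2 change from day 3 to day 10 with its SE in the serum-free arm (circles) and the FBS arm (squares) for each of the 8 genes, filled where the adjusted p was under 0.05. Gata6, Sox7 and Sox17 are filled in the serum-free arm, at -3.02, -2.26 and -2.68, and no gene is filled in the FBS arm.

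The Dazl-GFP line had the higher value of most of the 8 genes, but none passed between the lines in limma (2.69% of all tested genes did). Cubn gave 0.90 (SE 0.54, adjusted p = 0.445), Gata6 0.78 (SE 0.26, adjusted p = 0.185), Sox7 0.69 (SE 0.17, adjusted p = 0.0845) and Dab2 0.58 (SE 0.26, adjusted p = 0.317), while Amn gave -0.40 (SE 0.26) and Gata4 -0.11 (SE 0.21). Gata6 and Sox7, 2 genes, had an unadjusted p under 0.05, against 3616 of the 21352 tested genes. For Gata6 the SD of the pair of lines was 1.28 at day 0, 0.79 at day 3 and 0.03 at day 10 of the serum-free arm on the log2 scale, the Dazl-GFP array being the higher at days 0 and 3. The difference of the line effect between arms passed for none of the 8 genes and for no gene tested in limma, and none of the 8 had an unadjusted p under 0.05, against 630 of all tested genes.

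The probes of a gene were also compared, in a fit of all 31457 tested probes, and the calls of the 2 brightest had the same sign for Gata6 and Sox17 at day 3. The second probe of Gata6, A_52_P176245, gave 1.67 between the arms at day 3 (SE 0.34, adjusted p = 0.0146), with the FBS Stella-GFP array not well above background, and was not well above background on either serum-free array of day 10, at least 3.32-fold lower than at day 3 (adjusted p = 0.0337). The third, A_52_P590175, lay at 1.35% to 2.99% on every array and gave -0.13 (SE 0.31) at day 3. The second probe of Sox17, A_51_P273667, gave 2.39 (SE 0.45, adjusted p = 0.0117) at day 3 and -1.61 (SE 0.45, adjusted p = 0.103) from day 3 to day 10 of the serum-free arm. Folds given as "at least" set the bright group's mean against the dim group's, after lifting each dim signal to the weakest one called well above background on that array.

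The second probe of Gata4, A_52_P4201, with 10 spots per array, differed in its time course from the brighter one. It was well above background in 9 and 7 of its spots at serum-free day 3 (Dazl-GFP and Stella-GFP), in 6 and 1 at serum-free day 0, in 2 at FBS day 0 of the Dazl-GFP line, and in none on the other arrays. Its measured signal at day 3 was higher on the serum-free arrays (adjusted p = 0.00686 in limma), but the FBS arrays were not well above background. The serum-free mean of 2.12% did not exceed the mean of the weakest signals so called on those FBS arrays (1.77% and 2.64%). No bound on the fold therefore holds. The probe was at least 1.08-fold lower at serum-free day 10 than at day 3 (adjusted p = 0.0331), with measured levels of 0.655% and 0.850% against 2.27% and 1.98%. For those days the brighter probe gave 0.19 (SE 0.36). The second probe of Sox7, A_52_P644005, was well above background on both FBS arrays of day 10 and on none of day 0, at least 2.26-fold higher at day 10 (adjusted p = 0.0252), where the brighter probe gave -0.94 (SE 0.29, adjusted p = 0.0785). At day 3 it was at least 1.84-fold higher in serum-free cells (adjusted p = 0.0909).

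The dimmer probes of the other genes were mostly below background. That of Dab2, A_52_P17534, was well above it on both serum-free arrays of day 0 and on neither of day 10, at least 3.46-fold lower (adjusted p = 0.182). That of Pdgfra, A_52_P264283, was so on 2 arrays, those of serum-free Dazl-GFP at days 0 and 3. The third probe of Sox17 was above background on 1 array and the fourth on none, and both stayed out of the fit. Cubn and Amn have 1 probe each.

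**Figure D4:**
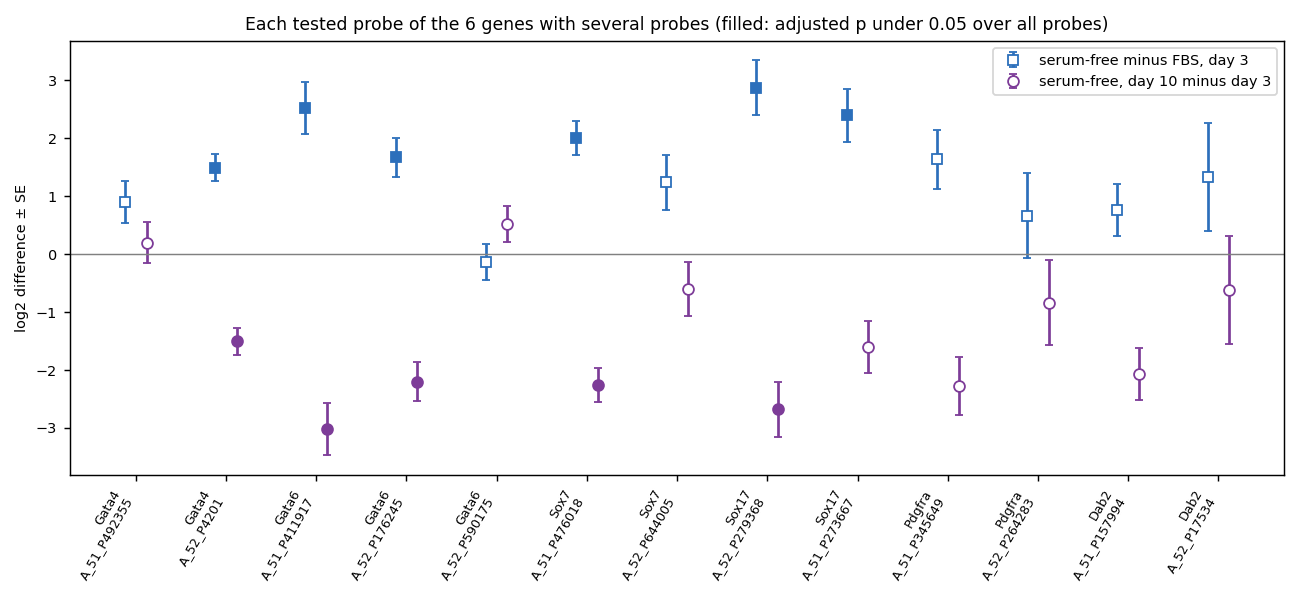
Log2 difference with its SE for each tested probe of Gata4, Gata6, Sox7, Sox17, Pdgfra and Dab2: serum-free minus FBS at day 3 (squares) and day 10 minus day 3 of the serum-free arm (circles), filled where the adjusted p over all probes was under 0.05. Brightest probes come first within a gene, with Gata6 at -3.02 and Gata4 at 0.19 for day 10 minus day 3. The second probes of Gata4, Gata6, Dab2 and Pdgfra were not well above background at serum-free day 10. Their circles stand for falls of at least 1.08-fold, 3.32-fold and 1.09-fold, with no bound for Pdgfra. On the FBS arrays of day 3 the second probes of Gata4, Sox7, Pdgfra and Dab2 were not well above background. Their squares stand for at least 1.84-fold for Sox7 and have no bound for the others.

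Among themselves the 8 genes gave 28 pairs, with Pearson correlations of log2 levels over the 12 arrays of -0.13 to 0.92 (median 0.67), as a description, since the arrays share days, lines and slides. Gata6 lay closest to Pdgfra (0.92), Sox7 (0.91) and Sox17 (0.84). Dab2 lay closest to Pdgfra (0.84), Amn (0.83) and Cubn (0.82). Sox17 and Amn had 0.21, and Gata4 ran from -0.13 with Amn to 0.54 with Sox17. Gata4, Sox7, Dab2, Cubn and Amn had their highest group level at serum-free day 0 and Gata6, Sox17 and Pdgfra at serum-free day 3, where the arrays of the last 3 overlapped those of day 0 and no change between these days passed.

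Of the tested genes, those most like each gene over the same 12 arrays were, by Pearson correlation and with no test, Nlrx1 (0.957), Hkdc1 (0.957) and Lama1 (0.924) for Gata6, and Lyn (0.950), Ccdc82 (0.948) and Dip2a (0.929) for Sox17. Those for Sox7 were Sh3yl1 (0.936), Pla2g12b (0.922) and Cebpz (0.919), and those for Gata4 included Gpr101 (0.953) and Olfr648 (0.927). Pdgfra was most like Tuft1 (0.939), Gdpd5 (0.929) and Emid1 (0.889). Dab2 was most like Dipk1b (0.954), Pard6b (0.941) and Piwil2 (0.932), Cubn most like Nfkb1 (0.937), Ptpn14 (0.926) and Nostrin (0.924), and Amn most like Fbxo17 (0.941), Kcnk6 (0.941) and Krt18 (0.928). Lama1 encodes a laminin chain of the parietal endoderm's basement membrane, and Krt18 a keratin of simple epithelia.

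Other genes of the lineage were listed beside the 8. Of 15 tested parietal endoderm genes 6 were higher and 1 lower in serum-free cells at day 3 (median 0.62, against -0.21 over all tested genes): Srgn, a proteoglycan core protein, by 3.89 (adjusted p = 0.0179), the collagen IV genes Col4a1 by 3.02 (adjusted p = 0.00849) and Col4a2 by 2.56 (adjusted p = 0.0171), and Lama1 by 2.36 (adjusted p = 0.00447). From day 3 to day 10 of the serum-free arm 4 of the 15 fell (median -0.79), among them Lama1 (-3.90, adjusted p = 0.0204), Col4a1 (-3.34, adjusted p = 0.0302) and Col4a2 (-3.23, adjusted p = 0.0366). Of 14 tested visceral endoderm genes 1 was higher at day 3, the hedgehog ligand Ihh by 1.38 (adjusted p = 0.0281), with a list median of -0.46. Ihh was dim, at 1.51% to 6.94% over the 12 arrays. From day 0 to day 10, 4 of these 14 were lower and 1 higher in the serum-free arm (median -0.66) and likewise 4 and 1 in the FBS arm (median -0.22), and from day 0 to day 3 of the serum-free arm 3 were lower and 1 higher (median -0.83). Apoe, Rhox5 and Tdh of this list were bright on all 12 arrays (lowest 2698%, 2418% and 9455%), and which cells gave that signal was not tested. Of 10 other transcription factors of the lineage none was higher at day 3 and Sall4, which is also a pluripotency factor, was lower (-0.81, adjusted p = 0.0233), while Foxa2 gave 1.04 (adjusted p = 0.326).

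The partners of the 8 genes mostly did not follow them at day 3. Of 13 partners of cubilin and megalin in endocytosis 2 were higher in serum-free cells (median 0.03), the motor gene Myo6 by 1.84 (adjusted p = 0.00285) and the recycling GTPase gene Rab11a by 0.61 (adjusted p = 0.0391). Lrp2, which encodes megalin and was chosen after its values were seen, gave 0.11 (adjusted p = 0.861) between the arms at day 3, and changed from day 0 to day 10 by -2.82 in the serum-free arm (adjusted p = 0.0168) and -2.28 in the FBS arm (adjusted p = 0.0164). Of 6 PDGF ligands and receptors 4 were lower, the receptor Pdgfrb (-2.01, adjusted p = 0.0211) and the ligands Pdgfc (-1.91, adjusted p = 0.00648), Pdgfd (-1.45, adjusted p = 0.00245) and Pdgfb (-1.37, adjusted p = 0.0244), with a list median of -1.41. Pdgfrb is also among the fibroblast markers. Pdgfb and Pdgfd were dim, at no more than 5.86% and 8.41%, and above background on 10 and 11 arrays. The ligand Pdgfa, the brightest of the list (760% to 4913%), and Pdgfrl did not pass. Of 5 GATA cofactors 3 were lower, Lmo2 (-2.32, adjusted p = 0.00564), Tal1 (-1.75, adjusted p = 0.0179) and Zfpm1, or FOG1, (-1.17, adjusted p = 0.00873). Lmo2 was above background on only 7 arrays, with a lowest level of 0.346%, so its value is not a measured fold. Tal1 was above background on 11 arrays.

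Markers of other sources of these genes were looked at as well. Of 8 tested SoxF partner and endothelial genes 1 was higher in serum-free cells at day 3, the TGF-beta co-receptor Eng (1.12, adjusted p = 0.00715), and 1 was lower, Emcn, which was above background on only 2 arrays and is given no difference, while Cdh5 and Tie1 were above it on none. Of 9 tested genes of definitive endoderm and primitive streak 2 were lower, Gsc (-2.70, adjusted p = 0.00999) and T (-1.18, adjusted p = 0.00736). Of 6 tested genes of FGF input none passed at day 3. The feedback inhibitors Dusp6 and Spry4, targets of MEK signalling, fell in both arms. In the serum-free arm Dusp6 was at -2.74 at day 3 (adjusted p = 0.00641) and -1.64 at day 10 (adjusted p = 0.0497) against day 0, and in the FBS arm at -2.02 (adjusted p = 0.0169) and -3.05 (adjusted p = 0.00384). Spry4 was at -3.94 (adjusted p = 0.00189) and -3.16 (adjusted p = 0.00534) in the serum-free arm, and at -4.34 (adjusted p = 0.00211) and -5.72 (adjusted p = 0.000486) in the FBS arm. Of 11 tested pluripotency genes none passed between the arms at day 3 and 2 were higher in serum-free cells at day 0. Against day 0, 3 of the 11 were higher at day 3 and none at day 10 of the serum-free arm (medians 0.96 and 0.42), and 8 at each of these days of the FBS arm (medians 1.18 and 1.29).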

How the data were processed

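Total RNA of the 12 cultures was labelled with Cy3 and hybridised to 1-colour Agilent arrays. The deposited scanner files hold intensity per spot, background-subtracted by Agilent Feature Extraction 9.1.3.1 per the file headers, with flags (other columns) for spots well above background. The authors' table holds a signal per spot that was, as its values show, divided by the array's median, and it served as an alternative.

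The processed intensity of each non-control spot was put on the log2 scale after division by the array's 75th percentile, and spots of a probe were averaged. Gene names came from the RefSeq table (22937 probes), the authors' table (7526) or the scanner files (10694, and 17 of the 8 genes). Genes entered the tests when 2 or more arrays had a spot of theirs well above background, which left 21352 of 27716 genes and all 8 described. limma 3.58.1 in R 4.3.3 fitted 6 groups and the cell line over all 12 arrays, with Benjamini-Hochberg adjustment over all tested genes and a threshold of 0.05. The model was tested on simulated data. Replicate numbers stand for the same line, which pairs the arrays: same-line deviations had correlations of -0.05 to 0.57 over 15 pairs (median 0.16). Members and lists were chosen with earlier results of these data known. The genes named beside the 8 were, of each list, up to 4 with the largest difference between the arms at day 3, and for each of the 8 the 3 most correlated with it, of which 1 is not reported here. Lrp2 lay outside this rule. Settings tried as alternatives were normexp and quantile scaling, the authors' table, the filter, single probes, the blocks, a variance trend, fewer arrays and leaving out each array.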

Additional observations from a re-analysis of the deposited data

Results flagged for a closer look

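Sox17, Gata6 and Sox7 changed differently in the arms between day 3 and day 10, by the test of the difference itself in limma. The serum-free change minus the FBS change was -3.97 for Sox17 (SE 0.67, adjusted p = 0.0319), from -2.68 in the serum-free arm and 1.29 in the FBS arm. It was -3.39 for Gata6 (SE 0.64, adjusted p = 0.0351), from -3.02 and 0.37, and -1.94 for Sox7 (SE 0.42, adjusted p = 0.039), from -2.26 and -0.31. Each of the 3 calls ended in 9 of 12 fits that left out 1 array, and none passed with the slide as a block (adjusted p = 0.075 to 0.0784), without the cell line in the model or with normexp background correction as planned. Both lines had a negative serum-free change in each of the 3 genes.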

How the results depend on the processing

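Counts of the 8 genes past the threshold were recomputed under each alternative, and quantile normalization left every count as reported. Normexp background correction gave 0 in each comparison with a call, and a repaired form chosen after seeing the data gave 3 between the arms at day 0, 3 from day 0 to day 3 of the serum-free arm, and 2 for those days and 3 from day 0 to day 10 of the FBS arm. The authors' table gave 2 at day 0. With no filter the count was 0 at day 0 and 1 for the difference of change from day 3 to day 10. With genes above background on all arrays, which left 7 of the 8, it was 2 between the arms at day 0. The same filter gave 1 from day 0 to day 3 and 5 from day 3 to day 10 of the serum-free arm, 1 from day 0 to day 3 and 4 from day 0 to day 10 of the FBS arm, 1 for the difference of change to day 10, and 1 between the lines. With every probe on its own, the probe with the lowest adjusted p stood for its gene in each comparison, a choice that favours calls. From day 0 to day 10 of the FBS arm 2 then passed, Dab2 and the dimmer Sox7 probe, which rose where the brighter one gave -0.94. The dimmer Gata4 probe brought the counts to 5 between the arms at day 3 and to 6 and 4 at serum-free day 10 against days 0 and 3. For the difference of change from day 3 to day 10 it brought the count to 4. No bound on its fold holds between the arms at day 3 or from day 0 to day 10 of the serum-free arm. With a variance trend 3 passed at day 0, 1 from day 0 to day 3 and 5 from day 3 to day 10 of the serum-free arm, 2 from day 0 to day 3 and 4 from day 0 to day 10 of the FBS arm, and 1 for the difference of change to day 10. With only the arrays compared 3 passed between the arms at day 0, 0 at day 3, 2 from day 0 to day 3 of the serum-free arm, and 0 in its other 2 time comparisons and from day 0 to day 10 of the FBS arm. With the slide as a block the counts were 0 at day 0, 2 at day 3, 1 from day 0 to day 3 of the serum-free arm, and 0 in its other 2 time comparisons, in the difference of change from day 3 to day 10 and over all days.

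Without the replicate block, which is the cell line here, the counts were 0 at day 0, 0 from day 3 to day 10 of the serum-free arm and 0 for the difference of change from day 3 to day 10. The adjusted p was then 0.116 for Sox7 at day 0, and 0.064 to 0.0855 for Gata6, Sox7 and Sox17 from day 3 to day 10. Leaving out 1 array gave 0 at day 0, 1 to 5 at day 3 and 0 to 1 at day 10 between the arms, 0 to 1, 0 to 5 and 0 to 3 in the serum-free time comparisons (day 3 and day 10 against day 0, then day 10 against day 3), and 0 to 1 and 0 to 2 for day 3 and day 10 against day 0 of the FBS arm. It gave 0 to 4 for the difference of change from day 3 to day 10 and 1 to 3 over all days. Of the single genes 3 values reversed: Gata4 over all days was -0.22 with normexp, and with every probe on its own the second probe of Gata4 gave -1.50 from day 3 to day 10 of the serum-free arm and that of Sox7 2.17 from day 0 to day 10 of the FBS arm. Both of these set arrays against a group not well above background, so that only bounds hold: at least 1.08-fold lower for Gata4 and at least 2.26-fold higher for Sox7. The causes were not tested. Gata4 lay near background throughout, where signal limits its precision.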
